A study of Mus musculus with 8 samples.

Results

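The cytosolic ribosomal protein genes encode the proteins of the large (Rpl) and small (Rps) subunit of the ribosome that translates nuclear messages. Members were the rows of the gene symbol table named Rpl, Rps or Rplp followed by a number and at most a short suffix, with processed pseudogenes (names with -ps) left out. This gave 88 of 55418 symbols, of which 43 were large subunit genes, 30 small subunit genes, 3 stalk genes, 6 paralogs of a subunit gene (Rpl3l, Rpl7l1, Rpl10l, Rpl22l1, Rpl39l and Rps27l) and 6 rows that the annotation lists as pseudogenes in spite of their names (Rpl32l, Rpl6l, Rps12l1, Rps3a2, Rps3a3 and Rps4l). The rule does not match Rpsa, Fau, Rack1 and Rpl36al, which also encode ribosomal proteins and are described beside the members. After a filter on low counts, 85 members were tested. Rpl10l was at 0 counts in all 8 libraries, and Rpl3l and Rpl39l had 1 count each in a single library.

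Total RNA of distal colon was sequenced from C57BL/6 mice of 8 to 10 weeks. Wild-type (WT) mice and mice of the NAIL-ΔNFκB genotype (ΔNFκB below), which the labels name without describing the allele, were left untreated or given 3% dextran sulfate sodium (DSS), a polysaccharide that injures the colon lining, for 4 days and then plain water for 4 days. The 4 groups (WT untreated, WT with DSS, ΔNFκB untreated, ΔNFκB with DSS) held 2 libraries each, and nothing says that the numbered replicates pair mice across groups. The labels do not say whether these mice were littermates, and p-values measure only the spread between the libraries of a group.

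Libraries held between 9229861 and 16935961 counts, with fewer after DSS. Y-linked transcripts (4 genes summed) were at 233 to 248 counts per 1000000 (CPM) in both untreated ΔNFκB libraries and in replicate 2 of the untreated WT group, and at 0 to 0.183 CPM in the other 5. So all libraries given DSS came from females, the untreated ΔNFκB libraries from males, and the untreated WT group held 1 of each: in ΔNFκB mice the effects of DSS and of sex cannot be told apart in a direct comparison. Reads of nuclear ribosomal RNA genes were 0.687% to 1.83% of counts without DSS and 3.46% to 6.70% with it, and mitochondrial genome transcripts 15.0% to 17.6% and 7.27% to 14%. Epithelial markers of the colon (8 genes) summed to 6010 to 11016 CPM in the 8 libraries, with none at 0, and skeletal muscle markers to at most 24.0 CPM.

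As background, the large subunit carries the peptidyl transferase centre, the small subunit decodes the message, and the stalk proteins Rplp0, Rplp1 and Rplp2 recruit the translation factors that hydrolyse GTP. Ribosomal proteins are made in large and matched amounts, and free Rpl5 and Rpl11 bind Mdm2, the ubiquitin ligase of p53. Their messages begin with a 5′ terminal oligopyrimidine (TOP) tract, a C followed by a run of C and T, through which mTORC1 and Larp1 control their translation. The colon lining is renewed by rapid division at the crypt base, a process with a high demand for ribosomes.

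Start site windows are shown for the members on which the results turn, since the TOP tract is the sequence feature that this family is known for. RefSeq windows (GRCm38.p6) were matched by symbol for 62 of 82 protein-coding members. Each window below runs 5′ to 3′ on the gene's strand, from 30 bases before the annotated start to 20 after it. Capitals mark the longest run of C and T that begins with C and has at least 5 more pyrimidines. The first 4 are members that were lower after DSS, the next 3 were higher, and the last 3 are Rps27, its paralog Rps27l and Rps6, whose protein is the classical phosphorylation target downstream of mTORC1.
Rps26 (chr10:128626487-128626536, minus strand): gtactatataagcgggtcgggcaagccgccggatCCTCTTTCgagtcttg
Rpl31 (chr1:39367821-39367870, plus strand): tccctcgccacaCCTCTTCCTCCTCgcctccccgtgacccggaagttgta
Rpl26 (chr11:68901536-68901585, plus strand): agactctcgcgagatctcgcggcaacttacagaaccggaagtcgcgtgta
Rpl9 (chr5:65391412-65391461, minus strand): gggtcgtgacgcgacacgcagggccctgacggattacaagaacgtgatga
Rplp2 (chr7:141447621-141447670, plus strand): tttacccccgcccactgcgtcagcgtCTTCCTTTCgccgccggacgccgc
Rps2 (chr17:24720033-24720082, plus strand): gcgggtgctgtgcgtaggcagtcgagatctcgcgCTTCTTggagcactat
Rps10 (chr17:27635225-27635274, minus strand): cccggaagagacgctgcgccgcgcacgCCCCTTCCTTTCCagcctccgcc
Rps27 (chr3:90213629-90213678, minus strand): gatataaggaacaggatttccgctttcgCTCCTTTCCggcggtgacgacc
Rps27l (chr9:66946056-66946105, plus strand): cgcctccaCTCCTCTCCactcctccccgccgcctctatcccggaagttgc
Rps6 (chr4:86857348-86857397, minus strand): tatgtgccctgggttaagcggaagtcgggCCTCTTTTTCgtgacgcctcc

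Such a run lay in 60.8% of the 74 member windows and in 35.6% of all 32851 windows of the table. The run need not be the TOP tract, which begins at the first base of the message: of 45 marked member windows the run spanned the annotated start in 17, followed it in 10 and lay wholly before it in 18, among them Rpl31 and Rps27l. CTTTCC, searched on the gene's strand, lies within such a run by definition, so it is not a separate feature. It lay in 16.2% of member windows and 2.44% of all. CTCTTTC, searched in the same way, also lies within such a run by definition and overlaps CTTTCC in some windows. It lay in 9.46% and 0.703%. CCGGAAG, the core letters of an ETS factor site, was searched on both strands of the whole 300 bases and lay in 35.1% of member promoters and 8.86% of all. The windows of Rpl26 and Rpl9 held no such run.

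Levels between genes are compared as CPM per kb of exon bases, averaged over all 8 libraries. Across the 76 subunit and stalk genes the median level was 126 CPM per kb, with quartiles at 71.6 and 184. Rplp1 stood highest at 671, followed by Rplp0 at 531 and Rps3a1 at 484. At the other end, Rps10 (1.40 CPM per kb), Rpl24 and Rpl13a stood apart from the other 73. Each of these 3 genes shares exon bases with other annotated genes, over 28.7% (Rps10), 47.0% (Rpl24) and 35.4% (Rpl13a) of its exon bases. Among those are the read-through or overlapping genes RPS10-NUDT3, Gm28037 and Gm45713, in that order, which are listed at 0 counts in all libraries. The levels of these 3 members are therefore uncertain, and so are their changes. Rpl35 and Rpl23a share more, 66.2% and 62.3%, and stood at 129 and 326 CPM per kb. The part of overlap in the low levels was not tested.

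**Figure D1:**
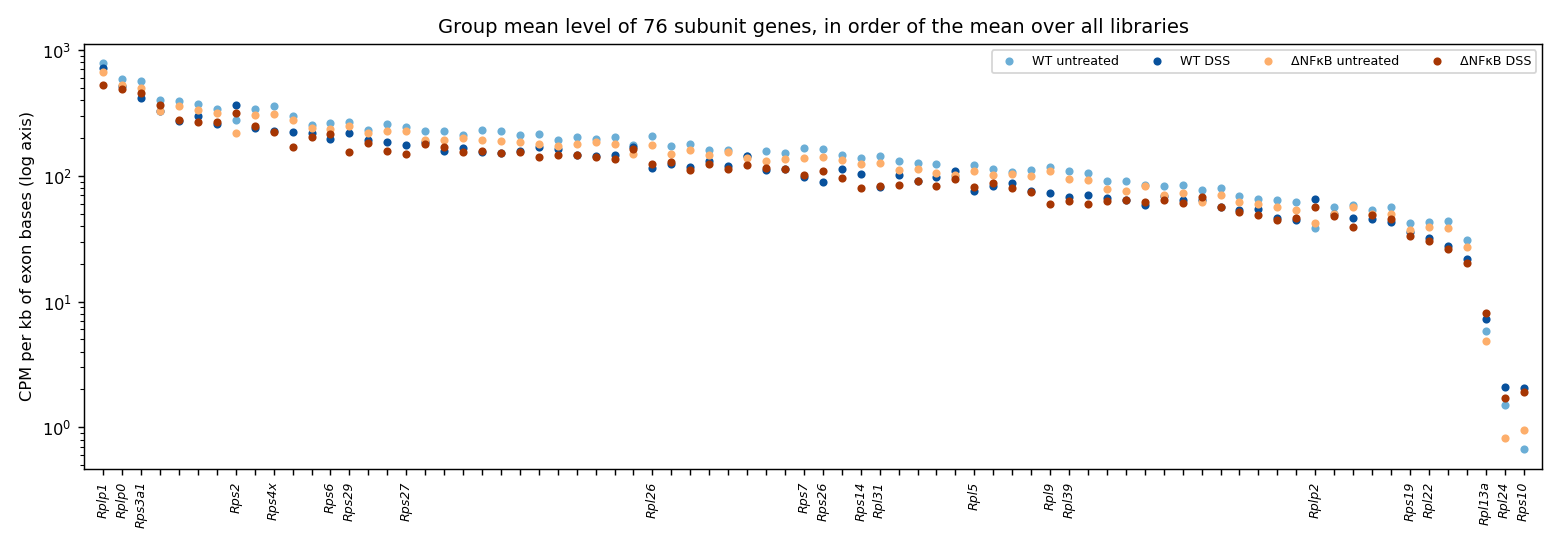
Group mean level of the 76 subunit and stalk genes, in CPM per kb of exon bases on a log axis, ordered by the mean over all libraries; each colour is a group of 2 libraries, and some genes named in the text are labelled. In most genes the untreated WT group is on top, and Rpl13a, Rpl24 and Rps10 stand apart at the right, all below 10 CPM per kb.

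Copies in the genome add to the uncertainty. Of 82 protein-coding members, 73 had at least 1 other annotated transcript matching 80% of the coding length at 95% identity, with a median of 6 copies among these and 57 for Rpl21. The deposited counts of 85 members were not whole numbers in at least 1 library (83.0% to 88.6% of member values per library, against 18.8% of all nonzero values), as when a read with several matches is shared between genes. Summing each member with its copies left 53 members lower in WT mice and 29 in ΔNFκB mice, against 53 and 30 without summing. In these sums the copies held 84.8% of the counts for Rpl24, 37.3% for Rps10 and 6.71% for Rpl13a. Rps19, Rps3, Rpl8, Rpl41 and Rps27l were among 9 members without such a copy.

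The members took a smaller share of the libraries after DSS. They held 2.1% and 2.02% of all counts in the untreated WT libraries and 1.84% and 1.97% in the WT libraries given DSS. In ΔNFκB mice the shares were 1.97% and 1.8% untreated and 1.6% and 1.52% with DSS. The groups did not overlap in either genotype, and 2 against 2 libraries cannot reach a p below 0.333 in an exact permutation test, so none is given. Whether the DSS groups differ between genotypes depends on the denominator. After DSS the share in ΔNFκB minus WT mice was -0.347 percentage points with library totals and -0.067 with library sizes scaled by TMM, which sets most genes level. The difference of the DSS effects (ΔNFκB minus WT) was -0.173 and 0.188 percentage points, with opposite signs. With library totals the difference ran from -0.26 without replicate 2 to -0.0862 without replicate 1 of the untreated ΔNFκB mice.

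**Figure D2:**
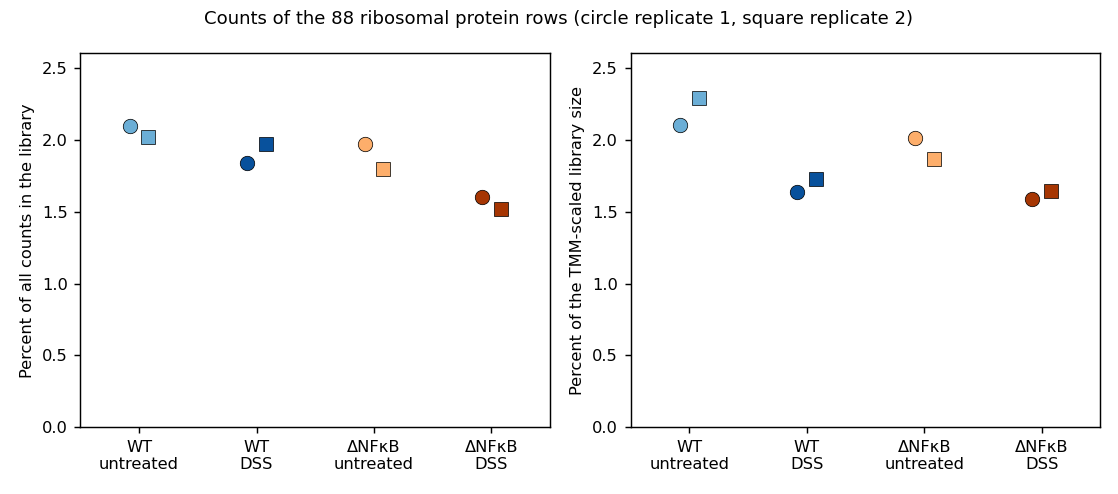
Counts of the 88 ribosomal protein rows per library, as a percent of all counts (left) and of the TMM-scaled library size (right); each point is a library. The shares with DSS lie below those of the untreated group of the same genotype in both panels, and the gap between the DSS groups of the 2 genotypes is seen only on the left.

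The balance between subunits also differed between groups. Counts of large subunit genes were 1.36 to 1.39 times those of small subunit genes in the 4 untreated libraries, 1.25 and 1.27 times in WT mice given DSS, and 1.31 times in both ΔNFκB libraries given DSS. The ranges of the 3 sets of libraries do not overlap. Rps2, an abundant small subunit gene that rose in both genotypes, enters the denominator.

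In WT mice, DSS was followed by lower levels of 53 of 85 tested members and higher levels of 3 at an adjusted p below 0.05 in edgeR's quasi-likelihood test, where 36% of all 17522 genes tested were called, 18.8% lower and 17.2% higher. The median log2 fold change of the members was -0.43, against 0.00 over all genes. The decline was shallow and broad: 30 of 43 large subunit genes, 19 of 30 small subunit genes, 2 of 3 tested paralogs and 2 of 6 pseudogene rows fell, and no stalk gene did. In 76 members (89.4%) both libraries with DSS lay below both untreated ones, in 6 both lay above, and in 3 the groups overlapped. Over all genes tested, 35.4% lay below in this way and 36% above.

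Rps26, a small subunit protein at the exit of the mRNA channel, fell with the smallest p. It stood at 235 and 267 CPM in untreated WT libraries and at 135 and 141 CPM with DSS (log2 fold change -0.86 ± 0.11 SE, adjusted p = 0.00124, edgeR). The 2 libraries with DSS were close together and well below the untreated pair. Rpl31, a protein near the exit tunnel of the large subunit, went from 219 and 259 CPM to 128 and 144 CPM (-0.81 ± 0.12, adjusted p = 0.00226). Rpl26, also near the tunnel exit and known for binding p53 mRNA, went from 274 and 323 CPM to 156 and 179 CPM (-0.83 ± 0.13, adjusted p = 0.00236). Rps7, a small subunit protein that also binds Mdm2, went from 310 and 360 CPM to 186 and 206 CPM (-0.77 ± 0.12, adjusted p = 0.00242). In all 3 the groups were separate, with a wider gap between groups than within them.

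Rpl5 and Rpl11 carry 5S rRNA into the large subunit. Rpl5 fell from 452 and 499 CPM to 300.1 and 289 CPM (-0.69 ± 0.12, adjusted p = 0.00363), and Rpl11 from 213 and 245 CPM to 162 and 186 CPM (-0.40 ± 0.12, adjusted p = 0.0363). Of the 4 X-linked members, Rps4x (-0.64, adjusted p = 0.00456 by edgeR) and Rpl39 (-0.70, adjusted p = 0.0035) fell by similar amounts. The others, Rpl10 and Rpl36a, are given below. Rpl3, Rpl7 and Rpl10 fell by 0.47, 0.59 and 0.58 on the log2 scale, and Rps3, Rps6 and Rps25 by 0.43, 0.44 and 0.48, with adjusted p from 0.0067 (Rpl7) to 0.0266 (Rps25). Rps19 (-0.24, adjusted p = 0.0975), Rps20 (-0.17, adjusted p = 0.285), Rpl38 (-0.41, adjusted p = 0.0894) and Rpl36a (-0.34, adjusted p = 0.0539) did not pass edgeR's test. Fold changes over all tested members ran from -0.98 for Rps3a2 to 1.61 for Rps10. Rps3a2 (2.80 to 6.44 CPM in the 4 WT libraries) and Rpl6l (1.64 to 3.55 CPM) are the pseudogene rows that fell, with adjusted p of 0.027 and 0.0409.

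The 3 members that rose in WT mice were Rps10, Rplp2 and Rps2. Rplp2, an acidic stalk protein, went from 90.9 and 68.8 CPM to 147 and 125 CPM (0.77 ± 0.15, adjusted p = 0.00557, edgeR). Its partners in the stalk did not follow: Rplp0 was at -0.18 (adjusted p = 0.281, edgeR) and Rplp1 at -0.14 (adjusted p = 0.341). Rplp2 counts were 7.02% and 9.34% of those of Rplp0 in untreated WT mice and 14.6% and 17% with DSS. Rps2, at the entry of the mRNA channel, went from 487 and 526 CPM to 662 and 663 CPM (0.39 ± 0.11, adjusted p = 0.0295). It lost the call without either WT library given DSS (adjusted p = 0.129 and 0.130 by edgeR), without replicate 1 of the untreated WT mice (0.0541) and without replicate 1 of the ΔNFκB mice given DSS (0.0587). Rps10 rose from 1.28 and 1.81 CPM to 4.92 and 4.58 CPM (1.61 ± 0.28, adjusted p = 0.004), and by 0.82 when summed with its copies, within the limit on its counts given above.

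Of 56 calls in WT mice, 15 held when each library was left out in turn, 2 higher (Rps10 and Rplp2) and 13 lower (among them Rpl5, Rpl7, Rpl9, Rpl26, Rpl31, Rpl35a, Rpl39, Rps4x, Rps7, Rps26, Rps27l and Rps28). The number lower was 23 without the untreated male, which makes the WT comparison all female, 14 and 22 without either library given DSS, 34 without replicate 2 of the ΔNFκB mice given DSS, and 25 with a term for sex. With library totals in place of TMM factors all genes shifted by a median of 0.27, 12 members were lower and 4 higher, the share of called genes that were higher went from 47.9% to 73.7%, and the members' median lay 0.43 below that of all genes, as it did with TMM.

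In ΔNFκB mice, DSS was followed by lower levels of 30 members and higher levels of 4, where 35.4% of all genes tested were called, 19.2% lower and 16.2% higher. The median was -0.29, against -0.04 over all genes. By role, 17 large subunit genes, 12 small subunit genes and 1 stalk gene fell, and no paralog and no pseudogene row passed the test. Both libraries with DSS lay below both untreated ones in 64 members (75.3%) and above them in 10, with overlap in 11, against 37.9% below and 33.8% above over all genes tested. Since this comparison sets untreated males against females given DSS, it was also fitted with a sex term, which rests on the 1 male and 1 female of the untreated WT group: then 1 member was lower (Rpl9) and 1 higher (Rps2). The term weakens the test of DSS in ΔNFκB mice for every gene, so these smaller counts are not a result about the members. Their median was then -0.15.

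Rpl9, a large subunit protein near the site where translation factors bind, had the smallest p. It stood at 350.3 and 327 CPM in untreated ΔNFκB libraries and at 189 and 176 CPM with DSS (-0.89 ± 0.11, adjusted p = 0.000751, edgeR). With the sex term it was at -0.92 (adjusted p = 0.0119). Rps29, a small zinc-binding protein of the small subunit, went from 177 and 168 CPM to 105 and 109 CPM (-0.69 ± 0.12, adjusted p = 0.00305). Rps14, a small subunit protein at the platform, went from 300.1 and 294 CPM to 195 and 188 CPM (-0.63 ± 0.11, adjusted p = 0.00381). The groups were separate in all 3, with the 2 libraries of a group close together. Rpl37 (-0.65, adjusted p = 0.0042, edgeR) and Rpl36 (-0.71, adjusted p = 0.00573) complete the 5 members that stayed called when each library was left out in turn. The number lower was smaller without any 1 of the ΔNFκB libraries. The number of all genes called also varied between the fits that left out a library. In these fits the members' median ran from -0.32 to -0.21 and that of all genes from -0.06 to -0.01. In WT mice Rpl9 also fell, from 363 and 355 CPM to 228 and 223 CPM (-0.67 ± 0.11, adjusted p = 0.00265, edgeR).

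Among the members followed in WT mice, Rpl5 (-0.43, adjusted p = 0.0239 by edgeR), Rps26 (-0.37, adjusted p = 0.0359), Rpl31 (-0.58, adjusted p = 0.00819), Rpl26 (-0.48, adjusted p = 0.0218) and Rps7 (-0.46, adjusted p = 0.0203) fell in ΔNFκB mice too. Rpl36a, which lies next to the tRNA exit site, passed the test here, from 97.6 and 87.9 CPM to 64.0 and 64.9 CPM (-0.52 ± 0.12, adjusted p = 0.0107). Rps4x (-0.47, adjusted p = 0.0161) and Rpl39 (-0.57, adjusted p = 0.00762) fell as well. Rpl3, Rpl7 and Rpl10 were at -0.21, -0.30 and -0.29, and Rpl11, Rpl38, Rps3, Rps6, Rps19, Rps20 and Rps25 between -0.32 and -0.05. None of these 10 passed edgeR's test, with adjusted p from 0.0648 for Rps3 to 0.763 for Rps20.

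Of the members that rose in ΔNFκB mice, Rps2 went from 402 and 406 CPM to 564 and 586 CPM (0.51 ± 0.11, adjusted p = 0.00968, edgeR). The groups were well apart, as in WT mice. Rplp2 went from 87.7 and 86.2 CPM to 116 and 120 CPM (0.44 ± 0.15, adjusted p = 0.0472) and was at 0.04 with the sex term. Rpl13a, a large subunit protein also known for the GAIT complex that silences inflammatory messages, went from 11.1 and 9.27 CPM to 19.1 and 14.9 CPM (0.74 ± 0.19, adjusted p = 0.0181), and Rps10 was at 1.002 ± 0.28 (adjusted p = 0.0246). None of these 4 calls held without each library in turn: Rps2 lost it without replicate 2 of the ΔNFκB mice given DSS (adjusted p = 0.0552 by edgeR), and the other 3 without at least 2 libraries.

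Rplp1 moved apart from Rplp0 in ΔNFκB mice. It went from 339.6 and 322 CPM to 263 and 260.0 CPM (-0.34 ± 0.11, adjusted p = 0.0391, edgeR), while Rplp0 was at -0.11 (adjusted p = 0.534). Rplp1 counts were 37.5% to 41.1% of those of Rplp0 in the 4 untreated libraries, 40.7% and 42.0% in WT mice given DSS and 30.3% and 34.4% in ΔNFκB mice given DSS.

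**Figure D3:**
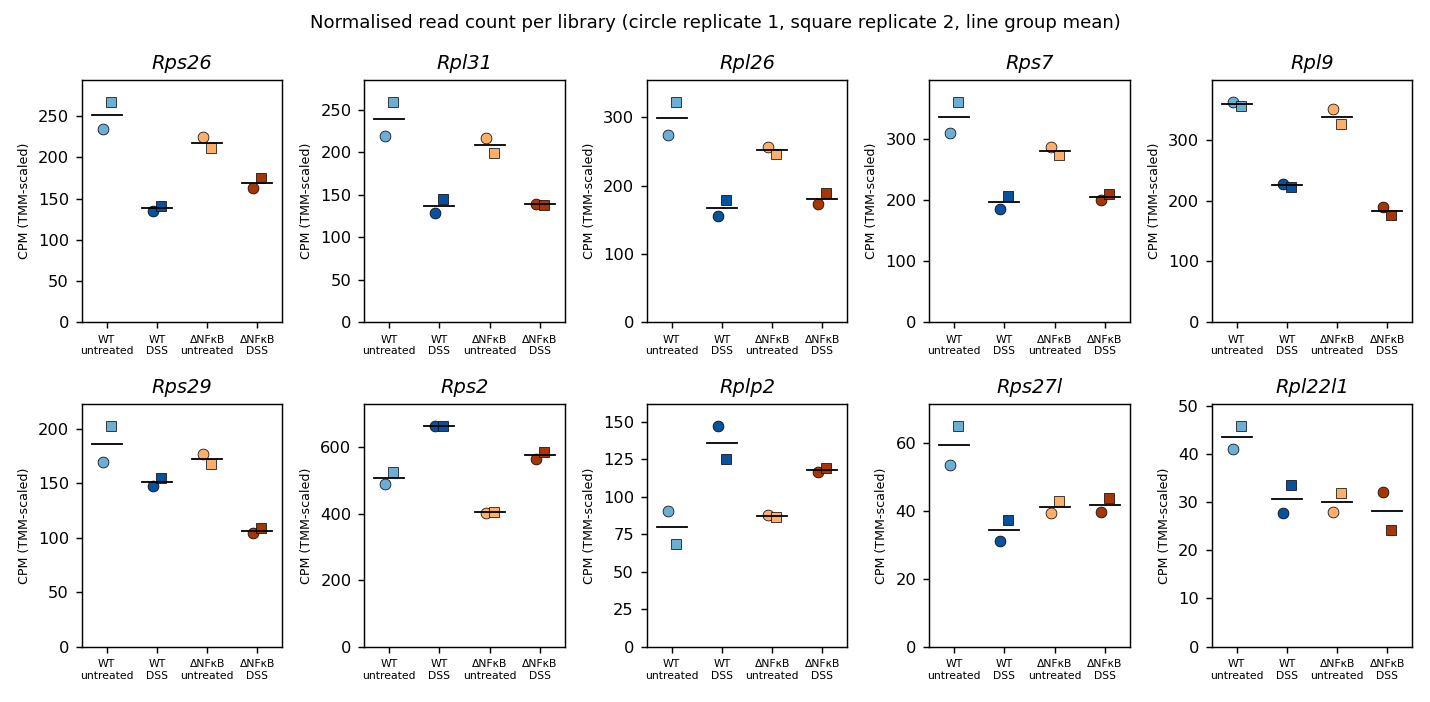
Normalised read count (CPM on the TMM-scaled library size) of 10 members in each of 8 libraries; points are libraries and lines are group means. Rps26, Rpl31, Rpl26 and Rps7 are lower with DSS in both genotypes, Rps2 and Rplp2 are higher, and Rps27l is lower with DSS in WT mice and level in ΔNFκB mice.

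The DSS effects of the 2 genotypes share no library, though they share the fit and the scaling. Between them, 27 members were lower in both, 26 in WT mice alone, 3 in ΔNFκB mice alone (Rpl36a, Rplp1 and Rps29), and Rps2, Rplp2 and Rps10 were higher in both. No member was called in opposite directions, and 72 of 85 had a negative fold change in both. Across the 85 members the log2 fold changes had a Pearson r of 0.73 and a Spearman rho of 0.51, given as a description, since genes are not independent and all members share the libraries. These counts and correlations were not taken over all genes, so they do not show a trait particular to the members. A call in one genotype and not in the other does not show a difference. The difference of the DSS effects (ΔNFκB minus WT) had a positive sign in 60 members and a negative one in 25, with a median of 0.13 against -0.05 over all genes. That sign depends on the scaling: with library totals the medians were -0.16 and -0.33, with the members 0.17 above all genes, against 0.18 with TMM. The difference passed the test in 1 member, Rps27l, where 17.7% of all genes were called, 8.63% higher and 9.07% lower.

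**Figure D4:**
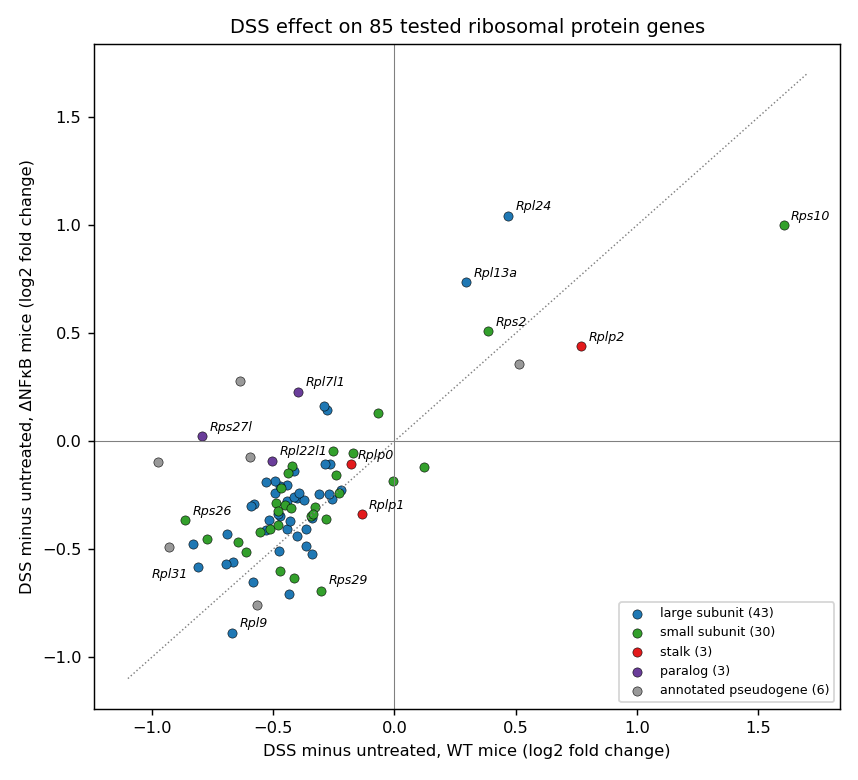
Log2 fold change with DSS in WT mice (x axis) and ΔNFκB mice (y axis) for the 85 tested members, coloured by role; the dotted line marks equal change. Of these, 72 lie in the lower left, and Rps10, Rplp2, Rps2, Rpl13a and Rpl24 lie at upper right.

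Rps27l, a paralog of Rps27 that is a p53 target and binds Mdm2, stood at 53.7 and 65.0 CPM in untreated WT mice and at 31.1 and 37.4 CPM with DSS (-0.79 ± 0.14, adjusted p = 0.00457, edgeR). In ΔNFκB mice it stood at 39.4 and 42.9 CPM untreated and at 39.7 and 43.9 CPM with DSS (0.02 ± 0.14, adjusted p = 0.917). The difference of the DSS effects was 0.82 ± 0.20 (adjusted p = 0.0313). It stayed called with a sex term (0.95, adjusted p = 0.0179 by edgeR), was not called with library totals (0.53), and was called in 1 of the 8 fits that leave out a library. Rps27 itself fell in both genotypes, from 229 and 279 CPM to 185 and 181 CPM in WT mice and from 243 and 231 CPM to 159 and 154 CPM in ΔNFκB mice. Rps27l counts were thus 23.3% and 23.4% of those of Rps27 in untreated WT mice, 16.8% and 20.6% in WT mice with DSS, 16.2% and 18.5% in untreated ΔNFκB mice and 24.97% and 28.6% in ΔNFκB mice with DSS.

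The other paralogs were less clear. Rpl22l1, the partner of Rpl22, stood at 41.0 and 45.7 CPM in untreated WT mice and at 27.6 and 33.5 CPM with DSS (-0.51 ± 0.17, adjusted p = 0.0487, edgeR). In ΔNFκB mice its values overlapped, at 27.9 and 31.9 CPM untreated and 32.1 and 24.1 CPM with DSS. Rpl22 fell in WT mice (-0.43, adjusted p = 0.0187 by edgeR) and in ΔNFκB mice (-0.37, adjusted p = 0.0339). Rpl7l1 was at -0.40 in WT mice (adjusted p = 0.0564, edgeR) and at 0.23 in ΔNFκB mice (adjusted p = 0.234), with a difference of 0.63 ± 0.20 (adjusted p = 0.0619). Rps4l, a pseudogene row, had 3.09 to 10.2 CPM per library and passed no test.

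Without DSS, no member was called between genotypes by edgeR, DESeq2 or limma-voom. An unadjusted p below 0.05 in edgeR was seen in 8 of 85 members, against 2832 of all 17522 genes. Here 0.388% of all genes were called, 0.348% lower in ΔNFκB mice and 0.0399% higher. The median over the members was -0.18, against 0.03 over all genes, and in 66 members (77.6%) both ΔNFκB libraries lay below both WT libraries and in 1 above, against 22.7% and 22.5% of all genes tested. With a sex term the median was -0.25 and 0 members were called.

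After DSS, 3 members were lower in ΔNFκB than in WT mice and 0 higher by edgeR, DESeq2 and limma-voom alike, where 20% of all genes were called, 11.7% lower and 8.32% higher. They were Rps29 (147 and 155 CPM in WT, 105 and 109 CPM in ΔNFκB mice, -0.50 ± 0.12, adjusted p = 0.0228), Rplp1 (353 and 359 CPM against 263 and 260.0 CPM, -0.44 ± 0.11, adjusted p = 0.0246) and Rps14 (242 and 255 CPM against 195 and 188 CPM, -0.37 ± 0.11, adjusted p = 0.0496). All libraries in this comparison are female. In each of these 3 genes the ΔNFκB libraries lay below the WT ones with no overlap. Such a separation was seen in 30 members (35.3%) downward and 13 upward, against 32.6% and 35.5% of all genes tested. The members' median was -0.06 and that of all genes 0.03. An unadjusted p below 0.05 by edgeR in either direction was seen in these 3 and 5 more members, against 6322 of all 17522 genes. Fewer members were lower without any 1 of the 4 libraries, and the number of all genes called also varied between the fits that left out a library. With library totals 17 were lower, all genes shifted by a median of -0.20, and the share of called genes that were higher went from 41.6% to 15.9%.

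The ribosomal proteins outside the naming rule were mixed. Fau, a fusion of a ubiquitin-like protein and the small subunit protein eS30, fell in WT mice (-0.41 ± 0.11, adjusted p = 0.0204, edgeR) and in ΔNFκB mice (-0.48 ± 0.11, adjusted p = 0.0111). Rack1, a scaffold protein on the small subunit, fell in WT mice (-0.53 ± 0.11, adjusted p = 0.00765) and was at -0.24 in ΔNFκB mice (adjusted p = 0.124). Rpl36al, a close relative of Rpl36a, rose in WT mice from 0.639 and 0.537 CPM to 1.93 and 1.37 CPM (1.48 ± 0.45, adjusted p = 0.0351, edgeR), at low counts, and was at 1.22 in ΔNFκB mice (adjusted p = 0.0694). Rpsa, a small subunit protein also known as a laminin receptor, was at 0.01 in WT mice (adjusted p = 0.953, edgeR) and at 0.15 in ΔNFκB mice (adjusted p = 0.377).

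Other genes of ribosome production and translation are given by list, with the count for the difference of the DSS effects (ΔNFκB minus WT) beside those for each genotype. Over all genes tested, 17.2% rose and 18.8% fell in WT mice, and 16.2% rose and 19.2% fell in ΔNFκB mice. The difference was called higher in 8.63% and lower in 9.07%. Of all 17522 genes, 8295 had an unadjusted p below 0.05 by edgeR for DSS in WT mice and 8062 in ΔNFκB mice. For the difference 6127 did, and by genotype without DSS 2832. As for the members, the ΔNFκB comparison sets untreated males against females given DSS. Of 77 tested mitochondrial ribosomal proteins, which build the separate ribosome of mitochondria, 20 fell and 1 rose with DSS in WT mice (median -0.28), and 20 rose and 0 fell in ΔNFκB mice (median 0.28, with 30 at an unadjusted p below 0.05 by edgeR in either direction). The difference of the DSS effects was higher in 21 of them and lower in 0, with a median of 0.59 and 46 at an unadjusted p below 0.05. Mrpl50, for example, stood at 32.4 and 33.9 CPM in untreated WT mice and at 14.8 and 16.9 CPM with DSS (-1.06 ± 0.13, adjusted p = 0.000871, edgeR), and at 23.9 and 24.2 CPM and then 21.8 and 22.6 CPM in ΔNFκB mice. Mrpl12 went from 44.5 and 40.9 CPM to 71.9 and 67.7 CPM in ΔNFκB mice (0.71 ± 0.11, adjusted p = 0.0025), and from 54.7 and 62.2 CPM to 55.4 and 51.3 CPM in WT mice (-0.13, adjusted p = 0.384). The medians of the cytosolic and mitochondrial ribosomal proteins thus both lay below 0 in WT mice and on opposite sides of 0 in ΔNFκB mice. Without DSS the mitochondrial ribosomal proteins already had a median of -0.32 in ΔNFκB minus WT mice, against 0.03 over all genes. Of the 77, 73 were negative, 29 had an unadjusted p below 0.05 by edgeR, and 0 were called. After DSS the median was 0.29 and 12 were called higher. The difference of the DSS effects takes in both.

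Of 45 ribosome biogenesis factors, which process rRNA and assemble subunits, 5 rose and 5 fell with DSS in WT mice (median -0.05), and 24 rose and 1 fell in ΔNFκB mice (median 0.48). The difference was called higher in 6 and lower in 0, with 20 at an unadjusted p below 0.05 by edgeR, against 6127 of all 17522 genes. Without DSS the median of these factors was -0.26 in ΔNFκB minus WT mice, with 39 of 45 negative and 0 called. After DSS it was 0.22, with 0 called. Mrto4, which prepares the stalk site of the large subunit, went from 4.57 and 6.43 CPM to 16.6 and 13.1 CPM in ΔNFκB mice (1.43 ± 0.22, adjusted p = 0.00199, edgeR). Grwd1, a chaperone of Rpl3, went from 5.21 and 4.96 CPM to 16.8 and 10.8 CPM (1.44 ± 0.24, adjusted p = 0.0026). Sbds, which releases eIF6 from the large subunit, fell in both genotypes, from 65.3 and 83.6 CPM to 37.7 and 44.3 CPM in WT mice and from 75.6 and 83.7 CPM to 41.2 and 46.8 CPM in ΔNFκB mice. So most called factors rose in ΔNFκB mice in the same libraries in which 30 ribosomal protein genes fell.

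Of 30 initiation factors, 4 rose and 11 fell in WT mice and 13 rose and 4 fell in ΔNFκB mice, and the difference was called higher in 6. Of 8 elongation factors 0 passed in WT mice, with 1 at an unadjusted p below 0.05 in edgeR, and 3 rose in ΔNFκB mice, with the difference higher in 1. Of 20 genes of RNA polymerase I transcription 0 rose and 5 fell in WT mice and 3 rose and 1 fell in ΔNFκB mice, with the difference higher in 2. Of 18 regulators of TOP messages and mTOR 7 rose and 5 fell, and 5 rose and 3 fell, with the difference higher in 1 and lower in 1. Of 11 tested genes of ribosome quality control 2 rose and 3 fell, and 2 rose and 1 fell, with the difference higher in 2. Of 11 snoRNA host genes 0 passed in WT mice (2 at an unadjusted p below 0.05) and 4 rose in ΔNFκB mice, and 0 differed between the DSS effects by edgeR (1 at an unadjusted p below 0.05). Of 4 tested genes of the p53 checkpoint 0 passed for DSS in either genotype by edgeR, with 1 and 0 at an unadjusted p below 0.05, and 0 for the difference, with 2 at an unadjusted p below 0.05. After DSS 1 of these 4 was higher in ΔNFκB than in WT mice. In each of these lists, the mitochondrial ribosomal proteins included, most genes did not pass the test of the difference. Some of the counts lie near the shares over all genes, and no list was tested as a set.

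**Figure D5:**
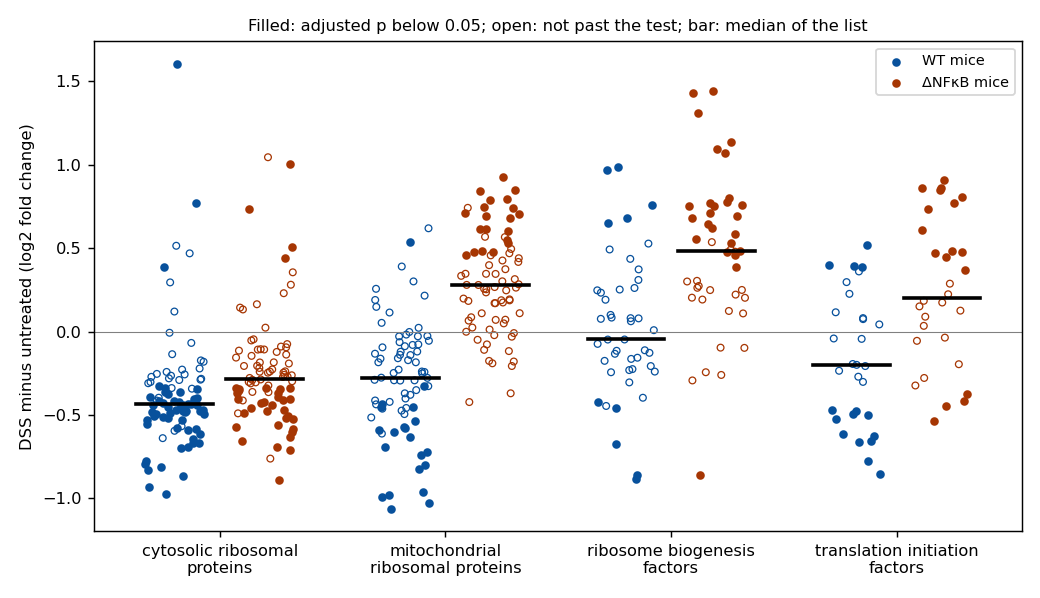
Log2 fold change with DSS in WT and ΔNFκB mice for the tested genes of 4 lists; each point is a gene, filled where the adjusted p is below 0.05, and the bar is the list's median. The cytosolic ribosomal proteins have medians of -0.43 and -0.29, the mitochondrial ones -0.28 and 0.28, and the biogenesis factors -0.05 and 0.48.

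Markers of several cell types moved with the same contrasts, and those of others mostly did not. With DSS, 0 of 9 macrophage markers were called in WT mice and 1 of 9 (higher) in ΔNFκB mice. T and NK cell markers had 1 of 9 higher in each genotype. Of 7 tested crypt base markers 2 were lower in WT mice and 1 in ΔNFκB mice. Of 6 tested B and plasma cell markers 1 was lower in WT mice, and 1 higher and 1 lower in ΔNFκB mice. Over all genes 36% and 35.4% were called. Neutrophil markers summed to 2.77 to 16.9 CPM without DSS, 399 and 590.1 CPM in WT mice with DSS (11 of 11 higher) and 93.1 and 91.1 CPM in ΔNFκB mice with DSS (10 of 11 higher), and 3 of them (Retnlg, Mmp8 and Ngp) were at 0 in untreated WT mice. Smooth muscle markers summed to 3934 to 7756 CPM without DSS and 1017 to 1494 CPM with it (10 of 10 lower in each genotype). Colonocyte markers went from 8686 to 13815 CPM down to 2601 to 3726 CPM (9 of 10 lower in WT, 7 of 10 lower and 1 higher in ΔNFκB mice). Goblet cell markers summed to 15699 to 26391 CPM without DSS, 3195 and 4021 CPM in WT mice with DSS (7 of 9 lower, 1 higher), and 11091 and 9152 CPM in ΔNFκB mice with DSS (4 lower, 4 higher). Cell cycle markers summed to 1273 and 1402 CPM in untreated WT mice, 1010 and 943 CPM with DSS (6 of 14 lower, 1 higher), 694 and 755 CPM in untreated ΔNFκB mice and 1512 and 1579 CPM with DSS (13 of 14 higher). Epithelial markers summed to 8049.9 to 11016 CPM without DSS, 6782 and 6010 CPM in WT mice with DSS (6 of 8 lower) and 8964 and 9445 CPM in ΔNFκB mice with DSS (1 higher), and the difference of the DSS effects was positive in 8 of 8 and called higher in 4. After DSS, ΔNFκB mice had lower values than WT mice in 11 of 11 neutrophil, 7 of 7 fibroblast, 6 of 7 endothelial and 7 of 9 neuron and glia markers, and higher ones in 9 of 9 goblet cell, 8 of 14 cell cycle and 4 of 8 epithelial markers. The fibroblast sums were 1832 and 2811 CPM in WT mice and 693 and 547 CPM in ΔNFκB mice, the endothelial sums 128 and 169 CPM and 39.4 and 28.9 CPM, and the neuron and glia sums 45.4 and 58.8 CPM and 8.81 and 7.01 CPM. No marker of the smooth muscle, colonocyte, goblet cell, cell cycle, epithelial, fibroblast, endothelial and neuron and glia lists was at 0 in both libraries of a group. Their part in the changes of the ribosomal protein genes was not tested, and in whole tissue fewer cells of a type and less RNA per cell cannot be told apart.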

How the data were processed

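The authors deposited gene tables of expected counts (values that need not be whole: 18.8% of nonzero values are not), by gene symbol and by Ensembl ID, with no normalization. Per the submitters' processing notes they used HISAT2 2.1, SAMtools 1.8, featureCounts and Subread 1.6.2 with mm10; which annotation and strand option, and what was done with multiply matching reads, is not given in the sources used here. The plan named counts; values were rounded to whole numbers. Of 55536 lines, those of 115 repeated symbols were summed.

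Groups came from the labels. One edgeR 4.0.16 quasi-likelihood fit (R 4.3.3) of 4 group means over 8 libraries, with filterByExpr, TMM factors (0.882 to 1.15) and 4 residual degrees of freedom, gave two-sided tests. P-values were adjusted by Benjamini-Hochberg over all 17522 genes tested, with 0.05 as the threshold. CPM are counts per 1000000 of the TMM-scaled library size; the 3 counts that a count of 0 allows are 0.177 to 0.325 per 1000000 of a library's total, for counting error only. The script was tested on simulated data. Fits with DESeq2 1.42.0, limma 3.58.1 (voom), other scalings, filters and sample sets were alternatives. Gene positions come from GENCODE M21. Near-identical copies were found with blastn 2.17.0, and summing members with them was an alternative added after seeing the data. Sex was read from 4 Y-linked genes.

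The members, gene lists and rule for named genes were chosen with earlier results of these data known. The rule takes, for each comparison and direction, the 4 called members with the smallest p (for other lists, 2), and the paralogs with their partners, the stalk genes, Rpl5, Rpl11, Rps6, Rps3, Rps19, Rps20, Rps25, Rpl13a, Rpl36a and Rpl38. Rps10, Rpl24 and Rpl13a at the low end of the levels, the members kept in every fit that leaves out a library, and the 3 members lower in ΔNFκB mice alone were named after their values were seen. Lists without named genes are described by counts. Some members and list genes are not reported here by name.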

Additional observations from a re-analysis of the deposited data

Results flagged for a closer look

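The difference of the DSS effects (ΔNFκB minus WT) passed edgeR's test in Rps27l, at 0.82 ± 0.20 on the log2 scale (adjusted p = 0.0313), the DSS effect being -0.79 in WT mice and 0.02 in ΔNFκB mice. Among the other ribosome genes named, it passed for the mitochondrial ribosomal proteins Mrps27, at 1.03 ± 0.19 (adjusted p = 0.0131 by edgeR; DSS effects -0.18 and 0.85), and Mrpl51, at 0.87 ± 0.16 (adjusted p = 0.0144; -0.54 and 0.33). It also passed for the pseudouridine synthase Dkc1, at 1.03 ± 0.23 (adjusted p = 0.0222 by edgeR; -0.45 and 0.58), and the helicase Ddx18, at 0.84 ± 0.22 (adjusted p = 0.0386; -0.30 and 0.53). The untreated ΔNFκB libraries are male and those given DSS female. The call of Rps27l was lost with library totals and in most fits that leave out 1 library. In those fits the genotype effect on Rps27l ran from -0.69 to -0.41 without DSS and from 0.18 to 0.43 after DSS. The difference takes in both.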

How the results depend on the processing

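Across the alternatives, no member called in a comparison changed sign. The medians of the members ranged from -0.48 to -0.16 for DSS in WT mice and from -0.34 to -0.15 in ΔNFκB mice, and without DSS from -0.28 to -0.13 by genotype. They turned sign by genotype after DSS, from -0.30 with library totals to 0.02 without replicate 2 of the WT mice given DSS, and in the difference, from -0.16 with library totals to 0.20 with the sex term. With library totals, 12 members were lower in WT mice, 17 were lower by genotype after DSS, and the difference was higher in 0 and lower in 1; the share of called genes that were higher went from 48.8% to 23.4% in the difference. With the compared groups alone, 32 members were lower in WT mice and 7 by genotype after DSS. With the sex term, 25 were lower in WT mice, 1 was lower and 1 higher in ΔNFκB mice, and the difference was higher in 5. In ΔNFκB mice, 18 were lower with no count filter, and 2 were higher with near-identical copies summed. How many of all genes were called also varied between the fits that leave out 1 library, for which the counts of members follow. Leaving out 1 library gave 14 to 47 lower in WT mice, 7 to 32 lower and 1 to 4 higher in ΔNFκB mice, 0 to 4 lower by genotype after DSS, and 0 to 4 higher in the difference. The share of counts moved with DSS in WT mice by -0.151 percentage points of the total, -0.284 without antigen receptor, mitochondrial and ribosomal RNA genes and -0.514 of the TMM-scaled size; on that scale the genotype effect after DSS was -0.067 and the difference 0.188, against -0.347 and -0.173 of the total. Leaving out 1 library gave -0.217 to -0.085 in WT mice (without replicate 2 and 1 given DSS), -0.411 to -0.237 in ΔNFκB mice (without replicate 2 and 1 untreated), -0.413 to -0.281 by genotype after DSS, -0.261 to -0.0868 without DSS and -0.26 to -0.0862 in the difference. Signs turned, with no call, with library totals for Rplp0 (0.091), Rplp1 (0.14), Rps19 (0.033) and Rps20 (0.10) in WT mice and Rpl22 (-0.22) in the difference. They turned with the sex term for Rpl22l1 (0.067), Rpl38 (0.13) and Rps20 (0.070) in ΔNFκB mice and Rps27 (0.0081) in the difference, and with upper quartile factors for Rps27l (-0.033) in ΔNFκB mice and Rpl22 (-0.030) in the difference. Leaving out 1 library gave -0.30 to 0.13 for Rpl22l1, -0.13 to 0.062 for Rps20 and -0.023 to 0.10 for Rps27l in ΔNFκB mice, -0.068 to 0.18 for Rpl22 in the difference, -0.32 to 0.039 for Rpl22l1 after DSS and -0.26 to 0.024 for Rps27 without DSS. The cause was not tested. A replicate block gave 52 and 30 lower members in WT and ΔNFκB mice; deviations of same-numbered libraries correlated at -0.126 to 0.244 between groups, so the numbers were not taken as a pairing. Depth limits the members with few counts: the SE of the DSS effects was 0.10 to 0.19 for most, and 0.25 (Rps12l1) to 0.45 (Rpl32l) for Rps10, Rpl24 and the pseudogene rows.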
